A study of Caenorhabditis elegans with 9 samples.

Results

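The ugt genes of Caenorhabditis elegans encode UDP-glucuronosyltransferases, and they were taken here as every gene whose symbol is ugt- followed by a number alone. Of 13246 genes listed in at least 1 of the 9 libraries, 61 met that rule. The gene name table holds 67 such symbols, and all 61 identifiers in the files carried the same symbol there. UDP-glucuronosyltransferases sit in the membrane of the endoplasmic reticulum and move a sugar from a UDP-sugar onto small fat-soluble molecules, which makes them easier to dissolve and to excrete. They belong to the second phase of detoxification, after cytochrome P450 enzymes and short-chain dehydrogenases and beside glutathione transferases, and their products leave the cell through transporters such as the P-glycoproteins. In C. elegans much of this chemistry takes place in the intestine, and foreign molecules are often joined to glucose.

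The series asked how gene expression changes when RPOA-2, a core subunit of RNA polymerase I, is removed from the whole animal or from the hypodermis, the epidermis that makes the cuticle. Global depletion at 24 h (n = 2) used degron::GFP::rpoa-2; eft-3p::TIR1 worms with 1 mM IAA, and hypodermal depletion at 24 h (n = 3) used degron::GFP::rpoa-2; col-10p::TIR1 worms with 1 mM IAA. The controls at 24 h (n = 2) and at 18 h (n = 2) were degron::GFP::rpoa-2 worms without IAA. IAA is an auxin, and TIR1 is the plant protein that marks a degron-tagged protein for destruction when auxin is present. The eft-3 promoter is active in most tissues and the col-10 promoter in the hypodermis. All 9 libraries thus carried the tagged rpoa-2 gene, while TIR1 and IAA were both present in the depleted groups and both absent from the controls, so that their effects and those of losing RPOA-2 cannot be told apart. The source was whole worms grown at 16 °C, the titles name embryos, and the stage at harvest is not given. The labels are silent on whether replicates are separate cultures, and the p-values below measure the spread among these libraries only, which may be technical.

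Library totals ran from 166455 to 2134185 counts, and every control library was shallower than every depleted one. The table lists no count below 3, and an unlisted count was 0, 1 or 2. In CPM (counts scaled to a library of 1000000, after normalization), 3 counts stood for 2.26 and 2.58 in the global libraries, for 1.44, 2.01 and 3.89 in the hypodermal ones, for 9.55 and 6.04 in the 24 h controls and for 14.8 and 18.1 in the 18 h controls. These floors cover counting error only. Expression of rpoa-2 itself was 355 and 369 CPM in global depletion, 290.1, 279 and 238 CPM in hypodermal depletion, 156 and 259.8 CPM in the 24 h controls and 187 and 272 CPM in the 18 h controls. By the edgeR test described below, rpoa-2 was called higher in global depletion than in the 24 h controls, by a log2 of 0.77. That call was ended by 7 of 18 alternative settings. Depletion here acts on the protein, so these levels do not check it.

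The family was concentrated on chromosome V, which held 39 of the 61 genes, against 10 on IV, 4 on X, 4 on I, 3 on III and 1 on II (build WBcel235). Coding sequences were alike in length, from 1503 to 1674 bp with a median of 1593 bp. With a gap of at most 10 kb counted as neighbouring, 31 genes stood in 11 groups and 30 stood by themselves. The largest group held 7 genes, ugt-12, ugt-11, ugt-9, ugt-10, ugt-8, ugt-14 and ugt-13, at V:4887187-4911399. How the authors' counting treated reads shared by near-identical copies is not given in the sources used here, so values of neighbouring copies are uncertain one by one. Among the genes called in any comparison, none shared a coding base with another annotated gene.

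More of the family was listed the deeper the library. Of the 61 genes, 55 and 52 were listed in the global libraries, 57, 55 and 51 in the hypodermal libraries, 38 and 44 in the 24 h controls and 31 and 26 in the 18 h controls. 48 were listed in every depleted library and 15 in every control library, and those 15 were also the ones listed in all 9. The highest count of any member in any library was 489, for ugt-22, and 12 members never exceeded 10 counts. In the plot of all members by library, the grey cells of unlisted genes lie mostly in the 4 control columns and in the lower rows.

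**Figure D1:**
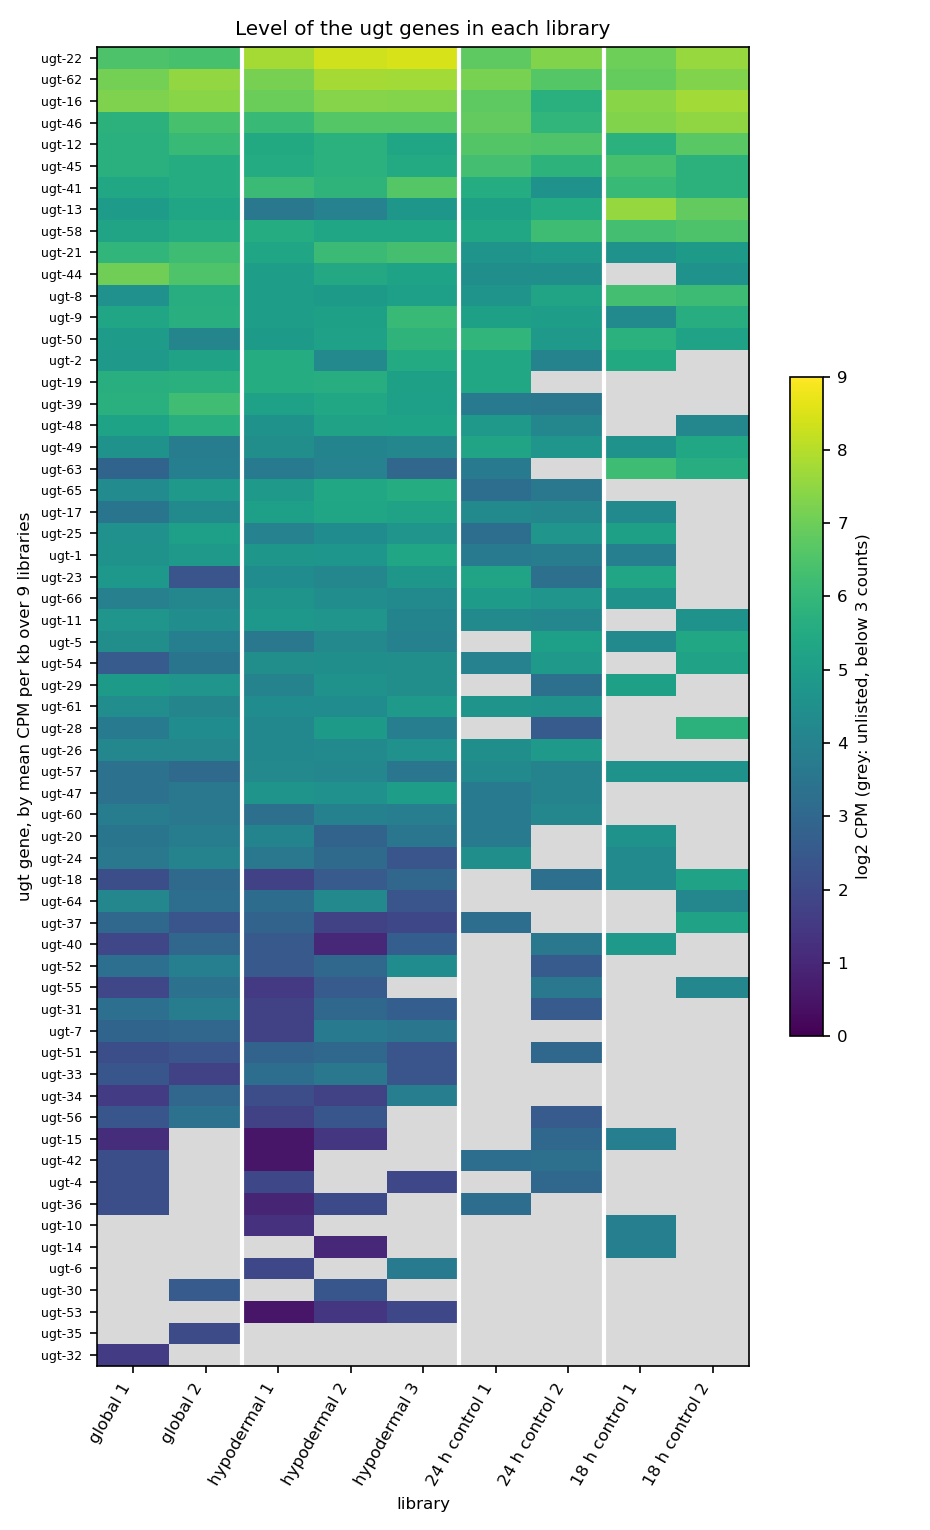
Log2 CPM of each of the 61 ugt genes (rows, by mean CPM per kb over 9 libraries) in each library (columns, by group), with grey for a gene unlisted in that library. The top rows, led by ugt-22, ugt-62 and ugt-16, are coloured in all 9 columns, and 31 and 26 rows are coloured in the 18 h controls.

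Per kb of coding sequence, 5 genes led the family over the 9 libraries. The mean level was 115.6 CPM per kb for ugt-22, 99.4 for ugt-62, 91.8 for ugt-16, 64.1 for ugt-46 and 41.8 for ugt-12. The order differed between groups. In hypodermal depletion ugt-22 was first in all 3 libraries, with 139, 204.5 and 222 CPM per kb. In global depletion it had rank 4 in both, with 56.0 and 52.6 CPM per kb, and ugt-44 had rank 3 in both, with 81.1 and 57.2 CPM per kb. In the 18 h controls ugt-13 had 120.5 and 72.0 CPM per kb, rank 1 in the first library and rank 5 in the second. At the next positions over all 9 libraries, ugt-45, ugt-41 and ugt-13 averaged 36.6, 35.9 and 35.9 CPM per kb, an order that the spread between libraries does not separate.

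Summed over the listed members, the family reached 1559 and 1736 CPM in global depletion, 1588, 1945 and 2059 CPM in hypodermal depletion, 1432 and 1277 CPM in the 24 h controls and 1721 and 1778 CPM in the 18 h controls. All 5 depleted libraries lay above both 24 h controls. That gap depends on what the unlisted members held: with 2 counts for each of them, the 24 h controls would reach 1578 and 1345 CPM, and the first of these exceeds the 1568 CPM of a global library computed the same way. Over the 15 members listed everywhere, the sums were 844.9 and 981.9 CPM in global depletion and 952.6, 1244 and 1351 CPM in hypodermal depletion. They were 980.2 and 831.8 CPM in the 24 h controls and 1277 and 1421 CPM in the 18 h controls. In that set both depletions overlapped the 24 h controls. The family took between 0.125% and 0.203% of a library's counts, and the 5 highest genes made up between 35.4% and 48.6% of the family's sum. No test was run on these sums.

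**Figure D2:**
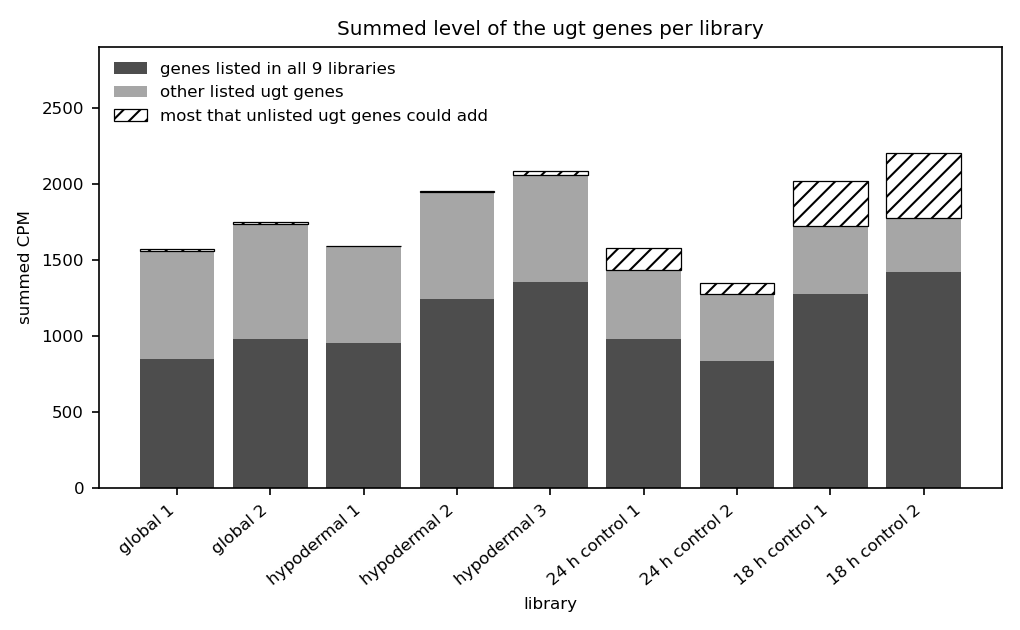
Summed CPM of the ugt genes in each library, split into the 15 genes listed in all 9 libraries and the other listed genes, with hatching for the most that unlisted genes could add at 2 counts each. The dark bars of the global libraries (844.9 and 981.9) and of the 24 h controls (980.2 and 831.8) overlap. That of the first hypodermal library (952.6) also lies between the 24 h controls, and hatching is tallest in the 18 h controls.

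Tests used edgeR's quasi-likelihood fit of all 9 libraries over 8026 genes, with Benjamini-Hochberg adjustment over all of them and a threshold of 0.05. The filter on low counts kept 41 ugt genes and left 20 untested. A gene could pass it through a depleted group alone, so counts over the 41 describe those genes and not the family. Shares of all tested genes are given below for edgeR calls at the threshold only. Counts at an unadjusted p below 0.05 and counts by DESeq2 have no such share beside them. They do not set the ugt genes apart from other genes. In whole animals, fewer cells of a type and less RNA per cell cannot be told apart.

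In global depletion, 3 ugt genes rose relative to the 24 h controls, ugt-44, ugt-39 and ugt-16, and none fell. That is 3 of 41 higher, where 3.44% of all tested genes were called higher, and 0 of 41 lower, where 5.01% were. At an unadjusted p below 0.05, 8 members were higher and 2 lower, and DESeq2 called 3 higher and 0 lower. The median log2 change was 0.26 over the 41 and 0.01 over all genes.

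The largest called rises were those of ugt-44 and ugt-39. ugt-44 (WBGene00008486, IV:10469741-10471899, plus strand) had 132 and 92.9 CPM in global depletion, 32.7, 43.5 and 37.6 CPM in the hypodermal libraries and 22.3 and 22.2 CPM in the 24 h controls. In the 18 h controls it was unlisted in the first library and had 24.2 CPM in the second. Both global libraries stood above all the others, and no library of the 24 h controls reached any hypodermal library. The global rise over the 24 h controls was 5.05-fold, a log2 change of 2.34 (SE 0.44, edgeR adjusted p = 0.000149), and none of 18 alternative settings ended the call, with adjusted p from 2.82e-05 to 0.0143. ugt-39 (WBGene00017329, V:7157142-7159190, plus strand) had 52.0 and 74.9 CPM in global depletion, 35.1, 42.2 and 33.7 CPM in the hypodermal libraries and 12.7 and 12.1 CPM in the 24 h controls, the last from 4 and 6 counts. It was unlisted in both 18 h controls, and the groups at 24 h did not overlap. Its global rise was 5.08-fold, a log2 change of 2.34 (SE 0.52, edgeR adjusted p = 0.00157). ugt-39 was not tested after thinning to the shallowest library. Without global replicate 2 the adjusted p was 0.0501, the highest of 17 alternatives, whose lowest was 0.000734.

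The last of them, ugt-16 (WBGene00013901, V:12825024-12827432, plus strand), has rank 3 in level per kb. It had 155 and 170.4 CPM in global depletion, 125, 166 and 162 CPM in hypodermal depletion, 108 and 52.4 CPM in the 24 h controls and 168 and 218 CPM in the 18 h controls. The 24 h controls were the low group, and the second of them lay far under the first. The global rise was 2.11-fold, a log2 change of 1.08 (SE 0.31, edgeR adjusted p = 0.0186). Over 18 alternatives the adjusted p ran from 0.00595 to 0.417. Without 24 h control replicate 2 the log2 change was 0.58 (edgeR adjusted p = 0.417), and without global replicate 1 or 2 the adjusted p was 0.0714 or 0.13.

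**Figure D3:**
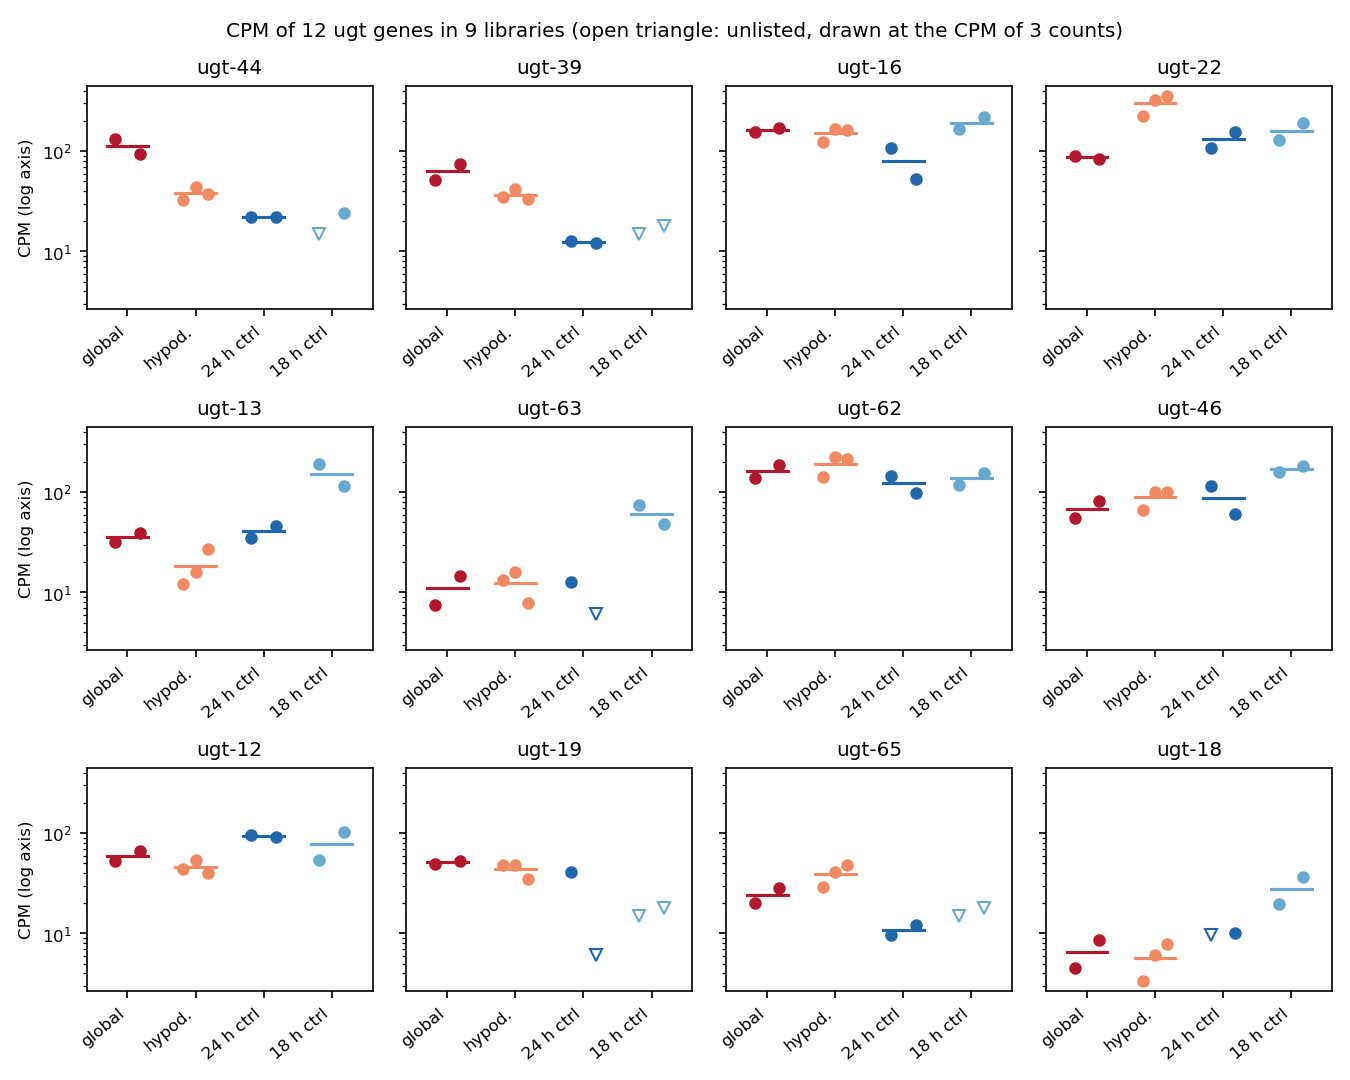
CPM on a log axis of 12 ugt genes in the 9 libraries, 1 point a library, with a bar at the group mean where every library lists the gene and an open triangle at the CPM of 3 counts where a library does not. The global points of ugt-44 (132 and 92.9) and the hypodermal points of ugt-22 (223, 328 and 355) stand above all other points in their panels.

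In hypodermal depletion, 2 ugt genes rose relative to the 24 h controls, ugt-22 and ugt-16, and none fell. That is 2 of 41 higher, where 1.66% of all tested genes were called higher, and 0 of 41 lower, where 3.39% were. At an unadjusted p below 0.05, 12 members were higher and 2 lower, while DESeq2 called 1 higher and 0 lower. The median log2 change was 0.38 over the 41 and 0.03 over all genes.

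ugt-22 (WBGene00007455, IV:13639260-13644402, plus strand) had 89.7 and 84.3 CPM in global depletion, 223, 328 and 355 CPM in hypodermal depletion, 108 and 157 CPM in the 24 h controls and 128 and 194 CPM in the 18 h controls. All 3 hypodermal libraries lay above the other 6, and both global libraries lay below the other 7. The hypodermal rise over the 24 h controls was 2.22-fold, a log2 change of 1.15 (SE 0.26, edgeR adjusted p = 0.00296). Over 18 alternatives the adjusted p ran from 0.00102 to 0.118, and the highest, without 24 h control replicate 1, was the one that ended the call, at a log2 change of 0.92. For ugt-16 the hypodermal rise was 1.95-fold, a log2 change of 0.97 (SE 0.29, edgeR adjusted p = 0.0411). It was ended by 10 of 18 alternatives, over which the adjusted p ran from 0.0129 to 0.561, the highest being that without 24 h control replicate 2, at a log2 change of 0.46. DESeq2 gave it an adjusted p of 0.0803.

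In global depletion, 8 estimates of 2-fold or more against the 24 h controls did not pass the threshold, 7 of them higher and 1 lower. ugt-21, picked out after its values were seen, was among the higher ones. It had 60.3 and 73.1 CPM in global depletion, 39.5, 70.3 and 81.6 CPM in hypodermal depletion and 24.7 to 30.2 CPM in the controls. Its global log2 difference was 1.30 (SE 0.44, edgeR adjusted p = 0.0563). In hypodermal depletion, 12 estimates of 2-fold or more against the 24 h controls did not pass the threshold, 10 of them higher and 2 lower. ugt-64 was listed in neither 24 h control, and its hypodermal mean was 1.41 times the mean level that 3 counts stood for in them (edgeR adjusted p = 0.247). Hypodermal replicate 3, at 5.18 CPM, lay below both of those floors, 9.55 and 6.04 CPM. ugt-28, ugt-29, ugt-19, ugt-21, ugt-1, ugt-41 and ugt-52 had log2 differences between 1.10 and 2.09, with edgeR adjusted p from 0.0915 to 0.573. ugt-65 (WBGene00008583, IV:12425217-12432533, plus strand) had 20.3 and 28.4 CPM in global depletion, 28.9, 41.5 and 47.9 CPM in the hypodermal libraries and 9.55 and 12.1 CPM in the 24 h controls. Its hypodermal log2 difference from the 24 h controls was 1.80 (SE 0.57, edgeR adjusted p = 0.0556). ugt-39 differed by a log2 of 1.58 in the same comparison (SE 0.52, edgeR adjusted p = 0.0672). On the low side, ugt-12 (WBGene00020592, V:4887187-4889629, minus strand) had 52.8 and 66.3 CPM in global depletion, 43.8, 54.3 and 40.2 CPM in hypodermal depletion, 95.5 and 92.6 CPM in the 24 h controls and 54.2 and 103 CPM in the 18 h controls. Every depleted library lay below both 24 h controls, with log2 differences of -0.66 in global depletion (SE 0.35, edgeR adjusted p = 0.276) and -1.01 in hypodermal depletion (SE 0.32, edgeR adjusted p = 0.055).

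ugt-62, with rank 2 in level per kb, was called in no comparison. The gene (WBGene00010904, III:4537277-4540644, minus strand) had 140.2 and 185 CPM in global depletion, 143, 222 and 214 CPM in hypodermal depletion, 146 and 98.7 CPM in the 24 h controls and 118 and 157 CPM in the 18 h controls. The 4 groups overlapped. Its log2 difference from the 24 h controls was 0.43 in global depletion, with a 95% interval from -0.13 to 1.00, and 0.67 in hypodermal depletion, with an interval from 0.14 to 1.20 and an edgeR adjusted p of 0.157. Among the members not called, the 95% interval lay within a 4-fold change either way for 26 of 38 in global depletion and for 25 of 39 in hypodermal depletion, and within a 2-fold change for 1 and for 3.

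**Figure D4:**
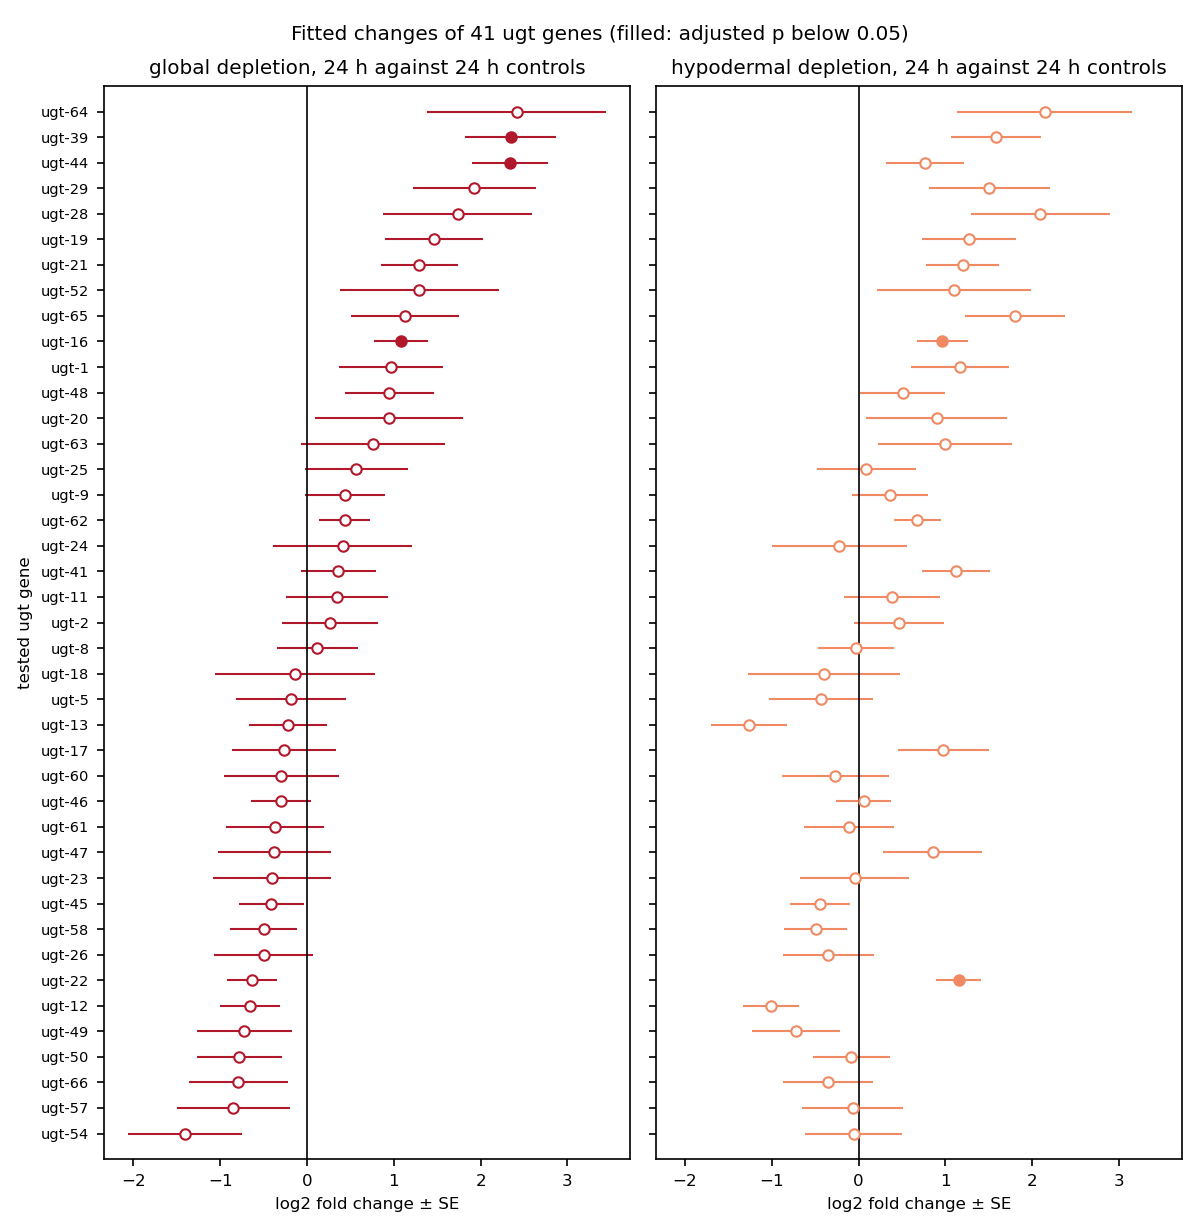
Fitted log2 fold change ± SE of the 41 tested ugt genes in global depletion (left) and hypodermal depletion (right) against the same 24 h controls, both in the order of the global values, with filled points for an adjusted p below 0.05. Filled points mark ugt-39, ugt-44 and ugt-16 on the left and ugt-22 and ugt-16 on the right, and ugt-22 is left of 0 in one panel and right of it in the other.

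The 2 depletions were compared directly at 24 h, where both groups carried TIR1 and IAA and had deep libraries. TIR1 came from a different promoter in each, and neither strain has a control without IAA. Effects of the strain and of where RPOA-2 was lost therefore cannot be told apart. Here 2 ugt genes passed the threshold in opposite directions, ugt-22 higher and ugt-44 lower in hypodermal than in global depletion. That is 1 of 41 higher and 1 of 41 lower, where 2.99% of all tested genes were called higher and 1.43% lower. At an unadjusted p below 0.05, 5 members were higher and 3 lower, and DESeq2 called 1 higher and 1 lower. The median log2 difference was 0.00 over the 41 and 0.01 over all genes.

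ugt-22 averaged 302 ± 69.8 CPM in hypodermal depletion (SD, n = 3) and 87.0 ± 3.79 CPM in global depletion (SD, n = 2). The difference was 3.44-fold, a log2 of 1.78 (SE 0.25, edgeR adjusted p = 8.29e-07), and none of 18 alternatives ended it, with adjusted p from 1.7e-09 to 0.00171. Against the 24 h controls its global log2 difference was -0.63 (SE 0.29), with an edgeR adjusted p of 0.191. ugt-44 averaged 37.9 ± 5.42 CPM in hypodermal depletion (SD, n = 3) and 112 ± 27.5 CPM in global depletion (SD, n = 2), a log2 difference of -1.57 (SE 0.30, edgeR adjusted p = 0.000324). Over 18 alternatives its adjusted p ran from 2.11e-06 to 0.107, and the setting without global replicate 1 ended the call, at a log2 difference of -1.32. Its hypodermal level exceeded the 24 h controls by a log2 of 0.76 (SE 0.45, edgeR adjusted p = 0.388). For 36 of the 39 members not called between the depletions, the 95% interval lay within a 4-fold difference, and for 12 within a 2-fold difference. ugt-16 was among the closest, with a log2 difference of -0.11 and an interval from -0.58 to 0.35.

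Between the 24 h and 18 h controls, 3 ugt genes were lower at 24 h, ugt-13, ugt-63 and ugt-16, and none was higher. That is 3 of 41 lower, where 2.13% of all tested genes were called lower, and 0 of 41 higher, where 0.934% were. At an unadjusted p below 0.05, 6 members were lower and 2 higher, and DESeq2 called 3 lower and 0 higher. These are the 4 shallowest libraries, and each of the 3 calls was ended by 4 or more alternatives.

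ugt-13 (WBGene00019232, V:4908868-4911399, plus strand) had 35.0 and 46.3 CPM in the 24 h controls and 192 and 115 CPM in the 18 h controls, with 31.7 and 39.6 CPM in global depletion and 12.03, 16.1 and 27.2 CPM in hypodermal depletion. All 7 libraries at 24 h lay below both at 18 h. The log2 difference between the controls was -1.90 (SE 0.46, edgeR adjusted p = 0.0111). It was ended by 5 of 18 alternatives, whose adjusted p reached 0.323 without 18 h control replicate 1. ugt-63 (WBGene00015449, V:5108180-5110791, minus strand) had 12.7 CPM in the first 24 h control, was unlisted in the second, and had 74.0 and 48.4 CPM in the 18 h controls. It had 7.54 and 14.6 CPM in global depletion and 13.5, 16.1 and 7.77 CPM in hypodermal depletion, so again every 24 h library lay below both at 18 h. Its log2 difference between the controls was -3.24 (SE 0.80, edgeR adjusted p = 0.013) with the unlisted count entered as 1. It was ended by 4 of 17 alternatives, whose adjusted p reached 0.219 without 24 h control replicate 2. For ugt-16 the log2 difference was -1.32 (SE 0.35, edgeR adjusted p = 0.0244), ended by 7 of 18 alternatives, with 0.376 as the highest adjusted p, without 24 h control replicate 2. That same library's low ugt-16 level of 52.4 CPM enters all 3 of the ugt-16 calls, and each of them was lost without it.

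Set against the 18 h controls, both depletions also differ in time, 24 h against 18 h, and the 2 comparisons share their controls. Global depletion had 3 of 41 members higher and 3 lower, where 5.99% of all tested genes were called higher and 8.61% lower. Hypodermal depletion had 4 of 41 higher and 4 lower, where 5.46% were called higher and 7.58% lower. At an unadjusted p below 0.05, 6 were higher and 7 lower in global depletion, and 10 higher and 6 lower in hypodermal depletion. DESeq2 called 3 higher and 4 lower in global depletion. In hypodermal depletion it called 5 lower and 0 higher, so that none of the 4 rises was called by both tools there.

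The genes lower than at 18 h were led by ugt-13 and ugt-63. ugt-13 differed by a log2 of -2.12 in global depletion (SE 0.42, edgeR adjusted p = 0.000251) and of -3.17 in hypodermal depletion (SE 0.41, edgeR adjusted p = 9e-08). The hypodermal call outlasted all 18 alternatives, with 0.00114 as the highest adjusted p, and the global one was lost without 18 h control replicate 1, at 0.0741. Against the 24 h controls, ugt-13 differed by a log2 of -0.22 in global depletion (SE 0.45, edgeR adjusted p = 0.839) and of -1.26 in hypodermal depletion (SE 0.44, edgeR adjusted p = 0.0909). Without 24 h control replicate 2 the global value of ugt-13 was 0.013. ugt-63 differed from the 18 h controls by a log2 of -2.48 in global depletion (SE 0.64, edgeR adjusted p = 0.00524) and of -2.25 in hypodermal depletion (SE 0.57, edgeR adjusted p = 0.00522). Both calls were lost without 18 h control replicate 1, at 0.163 and 0.205, and with unlisted counts as 0, at 0.0725 and 0.0683. The global call was also lost without global replicate 1, at 0.0959.

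ugt-46 (WBGene00015141, X:525929-530289, minus strand) has rank 4 in level per kb over all libraries. It had 55.0 and 82.6 CPM in global depletion, 66.9, 99.8 and 99.8 CPM in hypodermal depletion, 115 and 60.4 CPM in the 24 h controls and 158 and 181 CPM in the 18 h controls. The 3 groups at 24 h overlapped, and all 7 of their libraries lay below both at 18 h. Relative to 18 h it fell by 1.30 on the log2 scale in global depletion (SE 0.35, edgeR adjusted p = 0.0075), a call ended by 4 of 18 alternatives with adjusted p up to 0.203. In hypodermal depletion the log2 difference was -0.94 (SE 0.32, edgeR adjusted p = 0.0416), ended by 9 of 18 with adjusted p up to 0.42. ugt-18, a neighbour of ugt-16 at V:12820265-12822758, is named after its values were seen. It had 3.37, 6.03 and 7.77 CPM in hypodermal depletion, 19.7 and 36.3 CPM in the 18 h controls from 4 and 6 counts, and a log2 difference of -2.32 (SE 0.81, edgeR adjusted p = 0.0492) that 8 of 17 alternatives ended, with adjusted p up to 0.4.

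The genes higher than at 18 h were mostly ones that neither 18 h control listed, and their folds are lower bounds, set against 3 counts in each of those libraries. In global depletion ugt-44 rose by a log2 of 3.03 (SE 0.59, edgeR adjusted p = 0.000186), against 1 library with 4 counts and 1 unlisted. Over the alternatives that log2 change ran from 2.32 to 4.52. ugt-39 was at least 3.85-fold higher in global depletion (edgeR adjusted p = 0.00109) and at least 2.25-fold higher in hypodermal depletion (edgeR adjusted p = 0.0186). ugt-19 and ugt-65 are named after their values were seen. ugt-19 (WBGene00019515, IV:6076692-6079945, minus strand) had 49.7 and 52.5 CPM in global depletion, 48.1, 48.2 and 35.0 CPM in hypodermal depletion, 41.4 CPM in the first 24 h control and no listed count in the second or at 18 h. It was at least 3.10-fold higher in global depletion (edgeR adjusted p = 0.0115) and at least 2.66-fold higher in hypodermal depletion (edgeR adjusted p = 0.0198) than in the 18 h controls. ugt-65 was at least 2.40-fold higher in hypodermal depletion than in the 18 h controls (edgeR adjusted p = 0.0215). ugt-22 rose by a log2 of 0.92 over the 18 h controls in hypodermal depletion (SE 0.29, edgeR adjusted p = 0.0255), which 8 of 18 alternatives ended with adjusted p up to 0.277.

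Left without 1 of the 18 h controls, several of these rises lost their call. For ugt-19 the adjusted p without replicate 1 or 2 was 0.0923 or 0.0538 in global depletion and 0.148 or 0.0845 in hypodermal depletion. For ugt-39 in hypodermal depletion it was 0.16 or 0.0893, and for ugt-65 it was 0.168 or 0.0979. The global calls of ugt-44 and ugt-39 held under every alternative run, 18 for ugt-44 and 17 for ugt-39. Over them the log2 change ran from 2.32 to 4.52 for ugt-44 and from 2.66 to 8.84 for ugt-39. ugt-39 was not tested after thinning to the shallowest library, so its call was not checked at equal depth.

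The 20 untested members were scarce everywhere, with 20 counts as the highest in any library. 17 of them were listed in more of the 5 depleted than of the 4 control libraries, and 8 in no control library. The part of depth in that pattern was not tested. 3 counts stood for at least 6.04 CPM in every control library and at most 3.89 CPM in every depleted one. The 20 were ugt-4, ugt-6, ugt-7, ugt-10, ugt-14, ugt-15, ugt-30, ugt-31, ugt-32, ugt-33, ugt-34, ugt-35, ugt-36, ugt-37, ugt-40, ugt-42, ugt-51, ugt-53, ugt-55 and ugt-56. ugt-32 and ugt-35 were listed in 1 library each, with 4 and 5 counts.

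Neighbouring genes were set side by side. Of the 7 genes in the group from ugt-12 to ugt-13, 5 were tested. ugt-13 and ugt-12 were below the 24 h controls in hypodermal depletion, with log2 differences of -1.26 and -1.01, while ugt-8, ugt-9 and ugt-11 differed by -0.03, 0.36 and 0.38, and none of the 5 was called there. In the trio at V:12820265-12830109, ugt-16 rose in both depletions over the 24 h controls, ugt-18 differed by a log2 of -0.14 in global and -0.40 in hypodermal depletion with edgeR adjusted p of 0.956 and 0.878, and ugt-15 was untested. Without 24 h control replicate 2 the ugt-18 values were 0.99 and 0.73, also not called. Those of ugt-16 were 0.58 and 0.46 without that library. In the trio at V:7157142-7169281, ugt-39 rose in global depletion, ugt-41 differed by 0.36 there and by 1.12 in hypodermal depletion (edgeR adjusted p = 0.0915), and ugt-36 was untested. ugt-19 and ugt-20, which are adjacent on IV, differed from the 24 h controls by 1.47 and 0.94 in global depletion and by 1.27 and 0.90 in hypodermal depletion, none of them called.

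Genes that supply UDP-sugars were listed as sqv-4 (UDP-glucose dehydrogenase), sqv-1 (UDP-glucuronate decarboxylase), sqv-7 (a Golgi UDP-sugar transporter), gale-1 (UDP-galactose 4-epimerase) and the predicted UDP-glucose pyrophosphorylases D1005.2 and K08E3.5. 5 of the 6 were tested, all but D1005.2. None was called in either depletion against the 24 h controls, between the depletions or between the controls. The median log2 difference from the 24 h controls was -0.29 in global and 0.19 in hypodermal depletion. K08E3.5 had 152 and 127 CPM in global depletion, 183, 178 and 281 CPM in hypodermal depletion, 162 and 141 CPM in the 24 h controls and 291 and 224 CPM in the 18 h controls. It fell by 0.89 on the log2 scale in global depletion relative to 18 h (SE 0.29, edgeR adjusted p = 0.0275), and 7 of 18 alternatives ended that call, with adjusted p up to 0.526.

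Of 18 listed regulators of detoxification genes, 17 were tested. skn-1, which encodes the worm relative of the Nrf factors that switch on phase II enzymes, rose in both depletions over the 24 h controls, and atfs-1, a factor of the mitochondrial unfolded protein response, fell in hypodermal depletion. skn-1 had 286 and 300.3 CPM in global depletion, 299, 264 and 290.2 CPM in hypodermal depletion, 121 and 177 CPM in the 24 h controls and 212 and 242 CPM in the 18 h controls. All 5 depleted libraries lay above all 4 controls. The log2 change over the 24 h controls was 0.95 in global depletion (SE 0.25, edgeR adjusted p = 0.00943) and 0.91 in hypodermal depletion (SE 0.24, edgeR adjusted p = 0.0128), and without 24 h control replicate 1 the adjusted p was 0.193 and 0.251. Thinning all libraries to the shallowest gave 0.0755 and 0.0603, and without global replicate 1 or 2 the global value was 0.0692 or 0.0901. Against the 18 h controls skn-1 differed by 0.37 and 0.33 with edgeR adjusted p of 0.384 and 0.416. atfs-1 had 143, 140.0 and 114 CPM in the hypodermal libraries and 289.6 and 185 CPM in the 24 h controls, a log2 difference of -0.81 (SE 0.24, edgeR adjusted p = 0.039) that 8 of 18 alternatives ended, with adjusted p up to 0.48. hif-1, the hypoxia factor, was lower in hypodermal depletion than at 18 h by a log2 of -0.71 (SE 0.20, edgeR adjusted p = 0.0114), ended by 5 of 18 with adjusted p up to 0.607. None of the 17 was called between the 2 depletions or between the controls, and none in global depletion against the 18 h controls.

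Other detoxification families were counted by symbol, where 3.44% of all tested genes were called higher and 5.01% lower in global depletion against the 24 h controls, and 1.66% higher and 3.39% lower in hypodermal depletion. Cytochrome P450 genes had 4 of 34 tested members higher and 0 lower in global depletion, and 4 higher and 1 lower in hypodermal depletion. Over the alternatives between 0 and 4 were higher and between 0 and 2 lower in global depletion, and between 1 and 6 higher and 0 and 1 lower in hypodermal depletion. Glutathione transferases had 2 of 27 higher and 2 lower in global, and 2 higher and 1 lower in hypodermal depletion. Over the alternatives between 2 and 4 were higher and between 0 and 2 lower in global depletion, and between 1 and 3 higher and 0 and 1 lower in hypodermal depletion. P-glycoproteins and MRP transporters, which pump conjugates out of cells, had 6 of 20 higher and 1 lower in global, and 5 higher and 0 lower in hypodermal depletion, and over the alternatives between 4 and 7 were higher in global and between 4 and 6 in hypodermal depletion, with the lower counts at 1 and 0 throughout. Short-chain dehydrogenases had 0 of 22 higher and 2 lower in global, and 1 higher and 0 lower in hypodermal depletion. Over the alternatives 0 were higher and between 0 and 5 lower in global depletion, and between 0 and 1 were called in each direction in hypodermal depletion. The median log2 change of the transporters was 0.52 in global and 0.59 in hypodermal depletion, that of the cytochrome P450 genes 0.20 and 0.77, and that of all tested genes 0.01 and 0.03. The shares of all genes and the numbers tested given here belong to the main fit, and the ranges over the alternatives have no such share beside them. No difference between families was tested.

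Some markers of the intestine were called as well. Against the 24 h controls, 3 of 9 tested intestinal markers fell in global depletion: ifb-2 (a gut intermediate filament), vha-6 (a proton pump subunit) and pept-1 (a peptide transporter). In hypodermal depletion 1 did, ifb-2. Of all tested genes, 5.01% were called lower in global and 3.39% in hypodermal depletion. Without 24 h control replicate 1 the edgeR adjusted p was 0.176 for ifb-2 and 0.0548 for vha-6 in global depletion and 0.263 for ifb-2 in hypodermal depletion, and without global replicate 2 it was 0.219 and 0.168, while the pept-1 call outlasted all 18 alternatives. Between the depletions, ges-1 (a gut esterase), vha-6 and pept-1 were higher in hypodermal than in global depletion, and 0 of 9 were lower. There 2.99% of all tested genes were called higher and 1.43% lower. The summed level of the 10 markers ran from 9633 to 10730 CPM in global depletion, from 11310 to 16410 CPM in hypodermal depletion, from 12380 to 16580 CPM in the 24 h controls and from 13820 to 16890 CPM in the 18 h controls. The gut regulator elt-2 was listed in all 5 depleted libraries and in 1 library of each control group, elt-7 was unlisted in 5 libraries, and mtl-2 in all 4 controls. pept-1 had 369, 348 and 568 CPM in the hypodermal libraries, against 185 and 132 CPM in the global ones, a log2 difference of 1.42 (SE 0.23, edgeR adjusted p = 1.35e-05), where ugt-22 differed by 1.78 and ugt-44 by -1.57. The median log2 difference of the 9 tested intestinal markers between the depletions was 0.42, and 6 of the 9 were not called. Without global replicate 1 or 2 the edgeR adjusted p of ges-1 was 0.0999 or 0.0593, and that of vha-6 without global replicate 2 was 0.421. Against the 18 h controls, where ugt-13, ugt-63 and ugt-46 fell in both depletions, 5 of the 9 intestinal markers fell in global depletion (act-5, ifb-2, vha-6, pept-1 and ifc-2) and 3 in hypodermal depletion (act-5, ifb-2 and ifc-2). Of all tested genes, 8.61% in global and 7.58% in hypodermal depletion were called lower there. ifb-2 and pept-1 kept their calls under all 18 alternatives, act-5 lost its call under 5 in global and 12 in hypodermal depletion (edgeR adjusted p up to 0.472 and 0.89), vha-6 under 5 (up to 0.37), and ifc-2 under 8 in global and 1 in hypodermal depletion (up to 0.688 and 0.0702). Between the controls 1 marker was lower at 24 h, ifb-2, where 2.13% of all tested genes were called lower. It lost its call under 3 alternatives. The markers' part in the ugt results was not tested.

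Some markers of the hypodermis were called too. 3 of 8 tested ones, the cuticle collagen genes dpy-7, rol-6 and col-10, fell in both depletions against the 24 h controls, and 0 were called between the depletions. Against the 24 h controls, 5.01% of all tested genes were called lower in global and 3.39% in hypodermal depletion. The other 5 were not called against the 24 h controls. The median log2 change of the 8 was -0.13 in global and 0.06 in hypodermal depletion, where that of all genes was 0.01 and 0.03. With unlisted counts as 0 both dpy-7 calls were lost, at edgeR adjusted p of 0.144 and 0.154. Without 24 h control replicate 1 the edgeR adjusted p of col-10 was 0.117 in global and 0.112 in hypodermal depletion, and that of dpy-7 was 0.0621 in hypodermal depletion. The global calls of dpy-7 and col-10 were lost without global replicate 1, at 0.0741, and without global replicate 2, at 0.144. The summed level of the 10 hypodermal markers ran from 552.5 to 715.3 CPM in global depletion, from 584.2 to 707.5 CPM in hypodermal depletion, from 984.9 to 1209 CPM in the 24 h controls and from 1509 to 1555 CPM in the 18 h controls. rol-6 was unlisted in all 5 depleted libraries, in the first 24 h control and in 1 of the 18 h controls. Its calls against the 24 h controls rest on the second of them alone, and 15 alternatives were run for them. None of the markers of body wall muscle, pharynx, neurons or germ line was called against the 24 h controls or between the depletions. Against 18 h, rol-6 and col-10 of the hypodermal markers fell in both depletions. Of all tested genes, 8.61% in global and 7.58% in hypodermal depletion were called lower there. The col-10 calls held under all 18 alternatives, and those of rol-6 were lost under 2 of 15 in global and 1 of 15 in hypodermal depletion, among them without 18 h control replicate 1 (edgeR adjusted p = 0.583 and 0.549). Of the other tissues' markers, myo-3, unc-27 and tnc-2 were called lower in global depletion, and 1, 12 and 6 of 18 alternatives ended those calls. tnc-2 and tni-4 were called lower in hypodermal depletion, ended by 2 and 7 of 18. Their part in the ugt results was not tested.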

How the data were processed

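The authors deposited raw counts of the coding region of each gene, not normalized, in a table whose smallest entry is 3. Of its 10 libraries, 1 could be tied to no sample here and stayed out. Its row numbers imply 20189 transcripts per library, so unlisted counts were 0, 1 or 2 and were entered as 1. The submitters' processing notes name WBcel235 and DESeq2. Aligner, counter and use of strand were not given in the sources used here. Chromosome positions and coding lengths come from the deposited table and a WBcel235 annotation, which holds the listed transcript of 58 of the 61 genes.

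All 9 libraries were fitted together with edgeR 4.0.16 in R 4.3.3, with a term per group. Library sizes were the deposited totals, normalization was TMM, filterByExpr ran at its defaults (minimum count 10, minimum total 15), and the quasi-likelihood fit was robust. The biological coefficient of variation was 0.203. The SE is the log2 change over the root of its F statistic, and 95% intervals span 1.96 SE either side. CPM carry the TMM factors, and levels per kb use coding length. The fit was also run on simulated counts, with changes placed only in genes of high total count. That run does not check calls on scarce genes. Alternatives were another scaling (DESeq2's factors, total count), DESeq2 1.42.0, no filter, unlisted counts as 0 or 2, a fit of 2 groups, thinning to the shallowest library, a replicate block and leaving out each library.

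Named are members called in a depletion against the 24 h controls, between depletions or between controls, and the 5 highest per kb. Members and lists were chosen with earlier results of these data known.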

Additional observations from a re-analysis of the deposited data

Results flagged for a closer look

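2 ugt genes differed between global and hypodermal depletion, by the direct edgeR test of the 2 groups. The strains differ in the promoter of TIR1, so effects of the strain and of where RPOA-2 was lost cannot be told apart. ugt-22 was higher in hypodermal than in global depletion by 1.783 on the log2 scale, with 3 of 3 hypodermal libraries above both global ones. ugt-44 differed by -1.572 on the log2 scale, with 3 of 3 hypodermal libraries below both global ones.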

How the results depend on the processing

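No called log2 change of the 12 named genes turned its direction under an alternative. Changes that were not called did so 32 times, the widest being that of ugt-19 between the controls, 1.73 and, without 24 h control replicate 1, -1.32. Called members numbered 3 in global and 2 in hypodermal depletion against the 24 h controls, 2 between the depletions, 3 between the controls, 6 in global and 8 in hypodermal depletion against the 18 h controls. With the replicate block, a term for the replicate number, 1 was called in hypodermal depletion against the 24 h controls and 5 against the 18 h controls, and the other counts stayed within 1.5 times. The labels state no pairing, and same-numbered libraries deviated together with correlations from -0.14 to 0.21 over 4729 genes. DESeq2 called 1 and 5 in those same comparisons. Unlisted counts as 2 gave 4 in hypodermal depletion against the 24 h controls, adding ugt-39 and ugt-65. Thinning, which left 13 members tested, gave 1 there, 1 between the controls, 3 in global and 2 in hypodermal depletion against the 18 h controls. Between the controls, no filter, unlisted counts as 0 and the fit of 2 groups gave 1 each. Leaving out 1 library at a time gave 1 to 4 in global and 1 to 4 in hypodermal depletion against the 24 h controls, 1 to 2 between the depletions, 0 to 3 between the controls, 2 to 7 in global and 1 to 8 in hypodermal depletion against the 18 h controls. An arm left with 1 library was assumed to vary like the others. The cause of these changes was not tested. The lowest level that can be seen differs by comparison, since 3 counts stood for 1.44 to 3.89 CPM in the depleted libraries, for 9.55 and 6.04 CPM at 24 h and for 14.8 and 18.1 CPM at 18 h in the controls.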
